A study of Mus musculus with 12 samples.

Results

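Sox genes code for transcription factors that share a DNA-binding domain, the high-mobility-group (HMG) box. The 10 genes described here are the Sox factors best known from neural cells, chosen by their gene symbols in the deposited expression table, and they are 10 of the 55862 genes of that table. They were followed in 12 RNA-seq libraries from mouse brain cells, 3 in each of 4 groups, made to ask how astrocytes change when they are grown as spheres. ASTs were primary astrocytes from the cerebral cortex of C57BL/6 pups at postnatal day 1 to 2, kept as a monolayer in DMEM with 10% fetal bovine serum and taken at 0 days of sphere culture (the negative control). A-iSCs were ASTs after 5 days in sphere culture over agarose. P56-NPCs were C57BL/6J cells dissociated from the subependymal zone of adults of 8 weeks, and P0-NPCs were C57BL/6J cells dissociated from the hippocampus at postnatal day 0 (the positive controls). The methods name no sort for a marker in either NPC preparation, so both were cell suspensions of a dissected region, and while the methods speak in general of 3 independent experiments, the sources do not say which of these libraries came from separate cultures or animals. The p-values below therefore measure the spread between these libraries, which may be technical.

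Sox proteins bind short AT-rich motifs in the minor groove, bend the DNA and usually act together with a partner factor such as a POU protein. SoxB1 factors (Sox1, Sox2, Sox3) keep neural precursors undifferentiated, and the SoxB2 factor Sox21 counteracts them. SoxC factors (Sox4, Sox11) are best known from newborn neurons, SoxE factors (Sox8, Sox9 and also Sox10) from glia, and SoxD factors (Sox5, Sox6), which lack an activation domain of their own, modify the action of SoxE factors. Neural stem cells of the adult brain are themselves astrocyte-like and express Sox2 and Sox9.

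The relatedness of the 10 genes bears on how far their reads can be told apart, so the stretch of the HMG box with the longest run shared between members is shown first. In the longest reading frames of the GENCODE M21 transcripts, a box window of 79 residues was 89.9% to 98.7% identical in the 9 pairs of genes of the same letter (B, C, D or E) and 45.6% to 67.1% identical in the other 36 pairs. Sox8 and Sox9 were the closest pair, at 98.7%, followed by Sox1 and Sox2, at 96.2%. At the level of RNA, the longest exact run shared by any of the 45 pairs was 48 bases, between the coding sequences of Sox4 and Sox11. The next longest was a run of 45 bases between Sox1 and Sox3. No pair shared a run as long as the shorter of the read lengths used, so a read aligned over its full length had differences to separate any pair. The run of 48 bases encodes residues 18 onwards of the window, and the same place is given below for each of the 10 genes (5′ to 3′ on the coding strand, GRCm38), with bases that are the same as in Sox4 in capitals and the others in lower case.
Sox1, chr8:12396562-12396609, plus strand: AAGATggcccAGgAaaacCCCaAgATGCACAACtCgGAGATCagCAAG
Sox2, chr3:34650593-34650640, plus strand: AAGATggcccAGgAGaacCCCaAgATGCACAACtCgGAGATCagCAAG
Sox3, chrX:60892903-60892950, minus strand: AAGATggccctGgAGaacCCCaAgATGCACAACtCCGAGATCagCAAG
Sox4, chr13:28952749-28952796, minus strand: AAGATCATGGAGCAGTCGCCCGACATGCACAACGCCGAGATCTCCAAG
Sox5, chr6:143841181-143841228, minus strand: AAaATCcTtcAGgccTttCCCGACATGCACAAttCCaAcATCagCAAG
Sox6, chr7:115489670-115489717, minus strand: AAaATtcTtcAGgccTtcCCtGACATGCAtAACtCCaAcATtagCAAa
Sox8, chr17:25570130-25570177, minus strand: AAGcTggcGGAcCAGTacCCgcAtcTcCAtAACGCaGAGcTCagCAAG
Sox9, chr11:112782948-112782995, plus strand: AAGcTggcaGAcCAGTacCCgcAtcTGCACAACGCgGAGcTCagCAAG
Sox11, chr12:27342166-27342213, minus strand: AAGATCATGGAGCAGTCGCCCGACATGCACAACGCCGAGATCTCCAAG
Sox21, chr14:118235516-118235563, minus strand: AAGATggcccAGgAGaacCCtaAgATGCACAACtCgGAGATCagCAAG
In these 48 bases, Sox11 matched Sox4 at all 48, while the other 8 genes matched it at 29 (Sox6) to 33 bases.

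Promoters are shown for 4 members whose highest group did not overlap the others in the results below, which also holds for some members not shown. RefSeq promoter windows (build GRCm38.p6) were found for 8 of the 10 members, and none for Sox3 and Sox9. The 250 bases before the RefSeq start are printed in lower case for Sox2, Sox21, Sox4 and Sox11, with matches on either strand in capitals. The letters searched were the TATA box TATAAA, the CCAAT box, the core Sox motif ACAAAG with its second form ACAATG, and the SP1 motif GGGCGG. No match overlapped another in these 4 windows.
Sox2, chr3:34649745-34649994, plus strand: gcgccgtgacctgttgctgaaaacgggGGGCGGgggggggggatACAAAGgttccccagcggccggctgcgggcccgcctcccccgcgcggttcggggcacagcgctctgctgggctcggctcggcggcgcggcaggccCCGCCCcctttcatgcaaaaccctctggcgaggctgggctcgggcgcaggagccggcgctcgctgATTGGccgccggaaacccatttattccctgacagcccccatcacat
Sox21, chr14:118237031-118237280, minus strand: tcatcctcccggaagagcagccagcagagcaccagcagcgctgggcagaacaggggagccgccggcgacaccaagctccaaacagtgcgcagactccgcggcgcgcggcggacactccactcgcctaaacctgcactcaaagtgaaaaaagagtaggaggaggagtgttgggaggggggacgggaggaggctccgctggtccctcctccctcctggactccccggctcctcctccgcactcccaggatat
Sox4, chr13:28953700-28953949, minus strand: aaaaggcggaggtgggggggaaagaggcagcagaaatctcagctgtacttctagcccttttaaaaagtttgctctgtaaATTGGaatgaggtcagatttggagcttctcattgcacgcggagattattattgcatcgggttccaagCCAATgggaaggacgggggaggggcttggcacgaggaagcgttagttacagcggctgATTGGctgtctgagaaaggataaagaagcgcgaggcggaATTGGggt
Sox11, chr12:27342719-27342968, minus strand: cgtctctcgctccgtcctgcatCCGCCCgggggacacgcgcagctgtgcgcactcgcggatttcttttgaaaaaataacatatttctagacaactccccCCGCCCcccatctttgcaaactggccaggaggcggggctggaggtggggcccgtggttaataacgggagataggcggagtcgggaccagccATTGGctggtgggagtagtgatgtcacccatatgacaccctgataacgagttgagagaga
The Sox4 window held 4 CCAAT matches, the Sox2 and Sox11 windows 1 each and the Sox21 window none. Among all 32851 RefSeq windows of this length, 33.8% held the CCAAT box, 32.7% the SP1 motif, 16.5% the core Sox motif, 12.4% the TATA box and 10.7% the second Sox form. The core Sox motif was found in the Sox2 window at position -206, counted from the start, and the SP1 motif in the Sox2 and Sox11 windows, 2 times each. The RefSeq start of Sox2 lies 410 bases before the start of the gene in the expression table and that of Sox11 lies 144 bases before it. These matches describe letters only. Base composition differed among them, with 72.0% G and C in the Sox2 window, 65.2% in Sox21, 58.0% in Sox11 and 50.8% in Sox4, beside a median of 52.4% over all windows.

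The libraries held 17077780 to 24452419 fragments counted in genes, and mitochondrial genes took 16.5 to 17.6% of them in P56-NPCs and 2.94% to 7.03% in the other groups. A-iSC replicate 3 stood apart most from its group, at a root mean square distance of 0.46 on the log2 scale from the mean of the other A-iSC libraries, where the remaining libraries ranged from 0.18 to 0.33. Lists of 4 or 5 markers per cell type were summed in each library. Astrocyte markers (Gfap, Aqp4, Aldh1l1, Slc1a2, Slc1a3) were all at 1 FPKM or more in every library, with summed levels of 103 to 120.2 FPKM in ASTs, 882 to 1932 in A-iSCs, 1169 to 1246 in P56-NPCs and 145 to 199 in P0-NPCs. The highest A-iSC sum was that of replicate 3. Oligodendrocyte markers (Mbp, Mog, Mag, Cnp) summed to 6182 to 6910.1 FPKM in P56-NPCs, against 17.3 to 18.9 in ASTs, 50 to 72.1 in A-iSCs and 13.8 to 16.8 in P0-NPCs. Immature-neuron markers (Dcx, Tubb3, Stmn2, Neurod1, Neurod6) summed to 893 to 1114 FPKM in P0-NPCs, against 81.2 to 118 in ASTs, 35.9 to 58.1 in A-iSCs and 91.1 to 110.0 in P56-NPCs, and Neurod6 was at 0 in all 3 AST libraries. Ependymal markers (Foxj1, Ccdc153, Tmem212, Dynlrb2, Rsph1) summed to 50.4 to 63.6 FPKM in ASTs, 74.5 to 87.1 in A-iSCs, 267 to 368 in P56-NPCs and 90.9 to 117 in P0-NPCs, and mature-neuron markers (Rbfox3, Syt1, Snap25, Slc17a7, Gad1) to 0.581 to 0.786, 1.61 to 3.33, 69.7 to 83.2 and 43.5 to 54.9. All 5 of each list were called higher in P56-NPCs and in P0-NPCs than in ASTs, the mature-neuron markers and Ccdc153 and Tmem212 having passed the filter only through the NPC groups. Against ASTs, 4 ependymal markers were called under library size scaling in P56-NPCs and 4 under upper-quartile scaling in P0-NPCs. Microglia markers summed to 20.1 to 23.8 FPKM in ASTs, 193 to 246 in A-iSCs, 231 to 240.0 in P56-NPCs and 23.0 to 31.2 in P0-NPCs, and all 5 were called higher in A-iSCs and in P56-NPCs than in ASTs (P2ry12 through those groups alone). Markers of dividing cells summed to 169 to 195, 68.7 to 73.3, 41.6 to 42.9 and 84.3 to 96.7 FPKM in the same order of groups, and all 5 were called lower in each other group than in ASTs (4 of 5 in P0-NPCs under library size scaling). Sox1, Sox3, Sox5, Sox8, Sox9 and Sox21 were called higher in P56-NPCs than in ASTs. So were the astrocyte, oligodendrocyte precursor, oligodendrocyte, ependymal, mature-neuron and microglia markers. In A-iSCs against ASTs, all 5 astrocyte, all 5 microglia and 3 of 5 ependymal markers were called higher (P2ry12, Ccdc153 and Tmem212 through A-iSCs alone). All 5 markers of dividing cells and the 3 mesenchymal markers tested were called lower (Col3a1 through ASTs alone). The part of these markers in the member differences was not tested. These are bulk samples, so fewer cells of a type and less RNA per cell cannot be told apart in any result below.

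Levels are given in FPKM, fragments counted per length of gene and per depth of library, as deposited. Differences are on the log2(FPKM + 1) scale, the first group minus the second, with the standard error (SE) and the Benjamini-Hochberg adjusted p of limma over all genes tested, and a gene was called at an adjusted p under 0.05. In A-iSCs against ASTs, 7 of the 10 Sox genes rose (Sox1, Sox2, Sox3, Sox4, Sox5, Sox9 and Sox21), none fell, and Sox6, Sox8 and Sox11 were not called. Of all 14087 genes tested there, 25.2% rose and 29.6% fell. Sox5 was at 1 FPKM or more on average in A-iSCs but not in ASTs, so it entered the test only through the group where it was high. Against the neural preparations the pattern was mixed. Compared with P56-NPCs, A-iSCs were higher in Sox2, Sox4, Sox6 and Sox21 and lower in Sox1, Sox5 and Sox8, where 30.1% of all genes tested were called higher and 30.9% lower. With libraries scaled to their totals, 7 members were higher and 1 lower there. Relative to P0-NPCs, A-iSCs were higher in Sox2, Sox6, Sox8, Sox9 and Sox21 and lower in Sox3, Sox4 and Sox11, against 31.5% of all genes called higher and 33.6% lower. The control groups themselves differed from ASTs. P56-NPCs were higher in 6 Sox genes (Sox1, Sox3, Sox5, Sox8, Sox9, Sox21) and lower in Sox6, where 39.1% of all genes were called higher and 39.8% lower, and with libraries scaled to their totals 5 members were higher and 4 lower. P0-NPCs were higher in 5 (Sox1, Sox3, Sox4, Sox5, Sox11) and lower in 3 (Sox2, Sox6, Sox8), with 38.1% and 40.9% of all genes called higher and lower. Between the 2 NPC groups, P56-NPCs were higher in 6 (Sox1, Sox2, Sox5, Sox8, Sox9, Sox21) and lower in 3 (Sox3, Sox4, Sox11), with 39.7% and 39.0% of all genes called, although with libraries scaled to their totals Sox2 was called lower in P56-NPCs, and Sox1, Sox5 and Sox21 were not called, the last pair with the opposite sign. These comparisons share their groups, so their counts are not independent of each other. With A-iSC replicate 3 left out, 7 members were called in A-iSCs against ASTs, and with 2 other libraries left out in turn (AST replicate 1 and A-iSC replicate 2) 5 were.

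**Figure D1:**
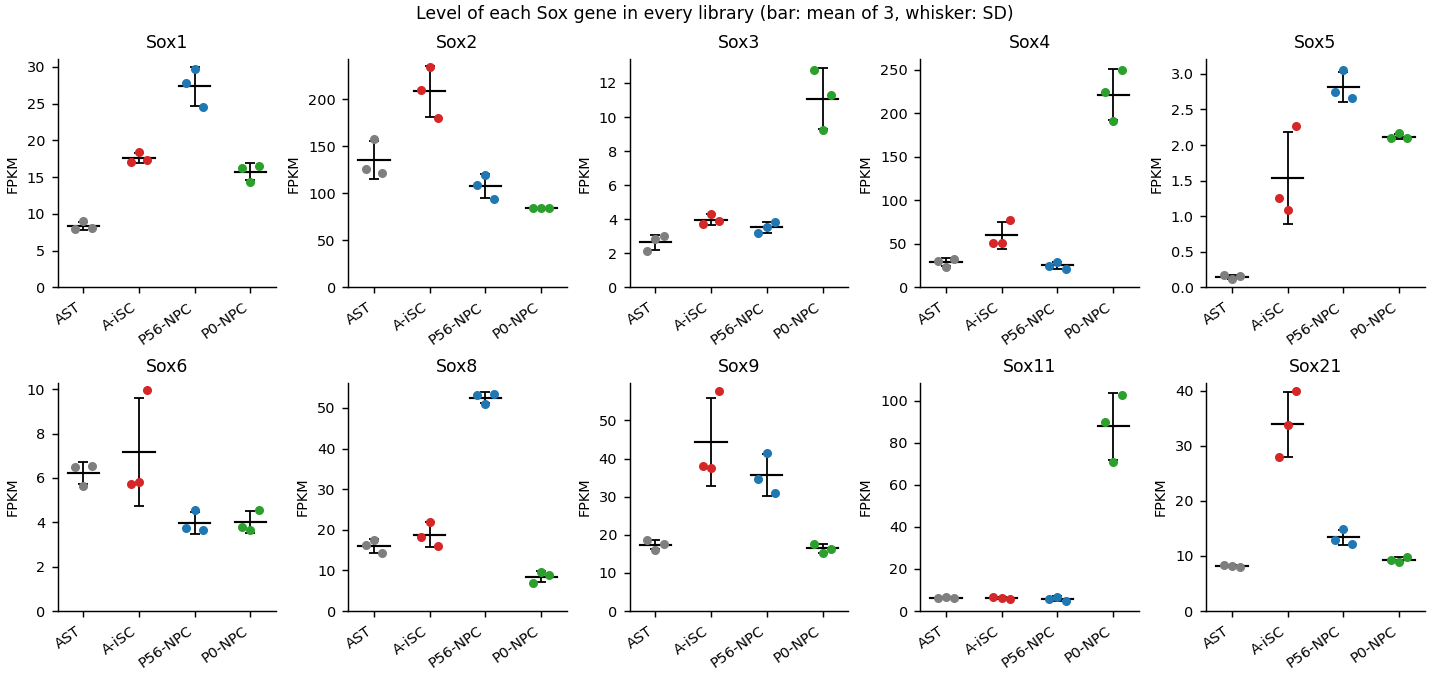
FPKM of each of the 10 Sox genes (y axis, from 0, a scale of its own in each panel) in the 3 libraries of each group (points), with the mean (bar) and SD (whisker). Sox4 and Sox11 stand out in P0-NPCs, Sox8 in P56-NPCs and Sox21 in A-iSCs, and A-iSC replicate 3, the rightmost red point, lies above the other A-iSC libraries in the Sox4, Sox5, Sox6, Sox9 and Sox21 panels.

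Sox2 (ENSMUSG00000074637, chromosome 3, 34650405 to 34652461, plus strand), a SoxB1 factor used to mark neural stem cells and one of the factors used to reprogram cells to pluripotency, had 126, 158 and 122 FPKM in the 3 AST libraries, 210.4, 234 and 180.5 in A-iSCs, 109, 119 and 94.0 in P56-NPCs and 84.8, 84.4 and 84.3 in P0-NPCs. Every A-iSC library was above every library of the other groups, and the AST libraries were already above all P0-NPC and P56-NPC libraries. The difference between A-iSCs and ASTs was 0.62 (SE 0.17, adjusted p = 0.0171), a ratio of means of 1.54. Of the 6 fits without 1 library, 3 no longer called it, without AST replicate 1, without AST replicate 3 and without A-iSC replicate 2, where it was 0.53 to 0.58 with adjusted p values of 0.0658 to 0.0771. A-iSCs exceeded P56-NPCs by 0.95 (SE 0.14, adjusted p = 0.00107) and P0-NPCs by 1.28 (SE 0.13, adjusted p = 9.20e-05). P56-NPCs and ASTs are neighbours in the order of levels, and their difference of -0.33 (SE 0.14, adjusted p = 0.0630) was not called, with an interval of -0.65 to 0.0011. It was called under 5 of the 13 alternatives, among them library size scaling (-0.66). P0-NPCs, the lowest group, differed from ASTs by -0.66 (adjusted p = 0.00145). P56-NPCs were higher than P0-NPCs by 0.34 (SE 0.092, adjusted p = 0.0106), a direction that turned with the scaling, to -0.29 (adjusted p = 0.0136) when each library was scaled to its total of counted fragments alone, where the median of all genes tested was -0.49.

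Sox1 (ENSMUSG00000096014, chromosome 8, 12395295 to 12400126, plus strand), a SoxB1 factor that appears early in the neural plate, had 7.91, 8.98 and 8.08 FPKM in ASTs, 17.1, 18.4 and 17.3 in A-iSCs, 27.9, 29.6 and 24.5 in P56-NPCs and 16.3, 14.4 and 16.5 in P0-NPCs. The groups did not overlap, and the order was P56-NPCs, A-iSCs, P0-NPCs and ASTs. Sox1 rose in A-iSCs by 1.0 (SE 0.10, adjusted p = 0.000197) and was 1.60 higher in P56-NPCs than in ASTs (adjusted p = 3.54e-06). P0-NPCs differed from ASTs by 0.84 (adjusted p = 5.61e-05), so that all 3 other groups were above ASTs. The difference of A-iSCs from P56-NPCs was -0.60 (SE 0.10, adjusted p = 0.00191), which moved to -0.070 under library size scaling and was then not called. A-iSCs and P0-NPCs did not pass the test (0.15, adjusted p = 0.226, interval -0.088 to 0.40), although all 3 A-iSC libraries were higher. P56-NPCs exceeded P0-NPCs by 0.76 (adjusted p = 0.000118), a call lost under library size scaling (0.16).

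Sox3 (ENSMUSG00000045179, chromosome X, 60891366 to 60893430, minus strand) was the lowest of the SoxB1 factors in each group. It had 2.14, 2.82 and 3.00 FPKM in ASTs, 3.72, 4.32 and 3.88 in A-iSCs, 3.21, 3.56 and 3.85 in P56-NPCs and 12.8, 9.21 and 11.3 in P0-NPCs. P0-NPCs were the highest and ASTs the lowest group without overlap, and A-iSCs and P56-NPCs overlapped between them. Sox3 was higher in A-iSCs than in ASTs by 0.45 (SE 0.13, adjusted p = 0.0208). That difference was not called under upper-quartile scaling (0.36, adjusted p = 0.0523) or in 2 fits that left out a library, without AST replicate 1 and without A-iSC replicate 2. The call of Sox3 in P56-NPCs against ASTs (0.32, adjusted p = 0.0333) was lost without AST replicate 1, P56-NPC replicate 2 or P56-NPC replicate 3, without a filter, with limma-voom and under both other scalings. P0-NPCs stood apart in each comparison. They exceeded ASTs by 1.72 (adjusted p = 1.12e-05), and the differences from them were -1.27 (adjusted p = 0.000102) in A-iSCs and -1.40 (adjusted p = 1.73e-05) in P56-NPCs. A-iSCs and P56-NPCs did not pass the test (0.13, interval -0.11 to 0.37), and A-iSCs were called higher under library size scaling (0.56).

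Sox21 (ENSMUSG00000061517, chromosome 14, 118233232 to 118237030, minus strand), the SoxB2 factor, had 8.41, 8.13 and 7.99 FPKM in ASTs, 27.9, 33.8 and 39.8 in A-iSCs, 12.9, 15 and 12.2 in P56-NPCs and 9.23, 8.88 and 9.77 in P0-NPCs. The lowest A-iSC library was above the highest P56-NPC library by more than the whole range of the P56-NPC libraries. The difference between A-iSCs and ASTs was 1.91 (SE 0.14, adjusted p = 4.27e-05), a ratio of means of 4.14. On the log2(FPKM + 1) scale it was the largest among the 10 genes, while the low gene Sox5 had the larger ratio. It was also higher in A-iSCs than in P56-NPCs, by 1.27 (SE 0.15, adjusted p = 0.000296), and than in P0-NPCs, by 1.75 (SE 0.14, adjusted p = 2.49e-05). Each of these 3 differences was called under all 13 alternatives run on it. The other groups lay closer together. P56-NPCs exceeded ASTs by 0.64 (adjusted p = 0.000331). P0-NPCs against ASTs missed the threshold at 0.16 (adjusted p = 0.0798) and passed it under library size scaling (0.43, adjusted p = 0.00124). P56-NPCs exceeded P0-NPCs by 0.48 (adjusted p = 0.00116), which turned to -0.10 under library size scaling. The Sox21 promoter printed above held none of the letters searched.

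Sox4 (ENSMUSG00000076431, chromosome 13, 28948919 to 28953713, minus strand), a SoxC factor expressed in precursors leaving the cell cycle and in young neurons, had 30.6, 23.9 and 32.5 FPKM in ASTs, 50.7, 50.9 and 77.8 in A-iSCs, 24.9, 29.5 and 21.3 in P56-NPCs and 224, 191 and 249 in P0-NPCs. P0-NPCs were far above the rest, and all A-iSC libraries were above all AST and P56-NPC libraries, which overlapped. Sox4 rose in A-iSCs by 1.0 (SE 0.20, adjusted p = 0.00502) and by 0.80 without A-iSC replicate 3. P0-NPCs exceeded ASTs by 2.89 (SE 0.15, adjusted p = 9.68e-07), a ratio of means of 7.63, and the difference of A-iSCs from P0-NPCs was -1.89 (SE 0.20, adjusted p = 9.47e-05). Sox4 thus rose in A-iSCs to a level between ASTs and P0-NPCs. Against P56-NPCs, A-iSCs were higher by 1.19 (adjusted p = 0.00170), while P56-NPCs differed from P0-NPCs by -3.09 (adjusted p = 7.21e-07). The difference of P56-NPCs from ASTs did not pass the test (-0.19, interval -0.55 to 0.17) and ranged from -0.32 to -0.083 with a library left out, lowest without AST replicate 2 and nearest 0 without P56-NPC replicate 3. P56-NPCs were called lower under library size scaling (-0.52).

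Sox11 (ENSMUSG00000063632, chromosome 12, 27334264 to 27342574, minus strand), the SoxC factor with the same 48 bases as Sox4 in the run printed above, had 6.36, 6.70 and 6.14 FPKM in ASTs, 6.60, 6.38 and 5.92 in A-iSCs, 5.93, 6.92 and 4.67 in P56-NPCs and 89.8, 71.0 and 103 in P0-NPCs. The first 3 groups overlapped each other, and P0-NPCs were far above them. In A-iSCs against ASTs the difference was -0.021 (SE 0.10, adjusted p = 0.874), with an interval of -0.26 to 0.21, and its sign turned under library size scaling (0.17, adjusted p = 0.202). P0-NPCs exceeded ASTs by 3.57 (SE 0.13, adjusted p = 2.03e-07), a ratio of means of 13.7. The differences from P0-NPCs were -3.59 (adjusted p = 1.04e-06) in A-iSCs and -3.70 (adjusted p = 6.72e-07) in P56-NPCs. P56-NPCs were not called against ASTs (-0.13, interval -0.42 to 0.17), nor A-iSCs against P56-NPCs (0.11, interval -0.22 to 0.43), and both passed under library size scaling, at -0.41 and 0.58. Among the 10 genes, Sox11 had the largest difference in each comparison with P0-NPCs. In P0-NPCs, 5 of 5 immature-neuron markers were called higher than in ASTs, of which Dcx, Neurod1 and Neurod6 passed the filter only through P0-NPCs. They had a summed level of 893 to 1114 FPKM against 81.2 to 118, and their part in the 2 differences was not tested. In A-iSCs, where Sox4 rose, 1 of the 3 immature-neuron markers tested was called higher (Dcx, 0.0596 to 0.108 FPKM in ASTs and 2.67 to 3.04 in A-iSCs) and 1 lower (Stmn2, 46.3 to 66.7 and 5.55 to 8.85).

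Sox8 (ENSMUSG00000024176, chromosome 17, 25565892 to 25570686, minus strand), a SoxE factor of the oligodendrocyte lineage, had 16.4, 17.6 and 14.2 FPKM in ASTs, 18.2, 22.0 and 16 in A-iSCs, 53.3, 50.9 and 53.3 in P56-NPCs and 6.91, 9.67 and 8.79 in P0-NPCs. P56-NPCs stood above and P0-NPCs below, and ASTs and A-iSCs overlapped. The A-iSC difference from ASTs was 0.20 (SE 0.15, adjusted p = 0.277), with an interval of -0.14 to 0.55, and was not called. It was 0.088 without A-iSC replicate 2 and 0.31 without A-iSC replicate 3. P56-NPCs exceeded ASTs by 1.65 (SE 0.089, adjusted p = 2.56e-06) and P0-NPCs by 2.51 (SE 0.11, adjusted p = 6.47e-07). P0-NPCs differed from ASTs by -0.86 (adjusted p = 0.000456). A-iSCs lay between the NPC groups, with differences of -1.45 (adjusted p = 7.12e-05) from P56-NPCs and 1.06 (adjusted p = 0.000675) from P0-NPCs. All 4 oligodendrocyte markers were called higher in P56-NPCs than in ASTs and than in P0-NPCs, and their part in these differences was not tested. Mbp, Mog and Mag passed the filter against ASTs, and Mag against P0-NPCs, only through P56-NPCs. In P0-NPCs against ASTs, where Sox8 fell, 2 of the 3 tested were higher (Mbp and Mog, through P0-NPCs alone) and 1 lower, and in A-iSCs against ASTs, where Sox8 was not called, both tested were higher (Mbp through A-iSCs alone). Oligodendrocyte precursor markers (Pdgfra, Cspg4, Olig1, Olig2, Gpr17) summed to 106 to 127 FPKM in ASTs and 135 to 159 in A-iSCs. Their sums were 472 to 488 FPKM in P56-NPCs and 51.9 to 82.7 in P0-NPCs. The group means of the sum had the same order as those of Sox8, but Olig1 made up most of it in each group. Olig1 and Olig2 each had that order, while Pdgfra, Cspg4 and Gpr17 did not. Pdgfra and Gpr17 were lowest in ASTs, and Cspg4 was lowest in A-iSCs. All 5 were called higher in P56-NPCs than in ASTs, than in A-iSCs and than in P0-NPCs, Pdgfra and Gpr17 through P56-NPCs alone against ASTs and Gpr17 against P0-NPCs. In P0-NPCs against ASTs, Olig1 (-0.93, adjusted p = 0.00374), Olig2 (-1.15, adjusted p = 0.000109) and Cspg4 (-0.28, adjusted p = 0.0177) were lower and Pdgfra, which passed the filter only through P0-NPCs, was higher, with 2 lower in place of 3 under library size scaling. Their part was not tested. Sox8 also overlaps the antisense gene 2810468N07Rik over 329 exonic bases of its 3118, a gene with mean levels of 2.06 FPKM in ASTs, 5.55 in A-iSCs, 66.4 in P56-NPCs and 1.88 in P0-NPCs. The strand setting of the counting is not given in the sources used here, so reads of the 2 genes in the shared bases cannot be told apart.

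Sox9 (ENSMUSG00000000567, chromosome 11, 112782224 to 112787760, plus strand), needed for the switch from neurogenesis to glia and a nuclear marker of astrocytes, had 18.6, 16.1 and 17.7 FPKM in ASTs, 38.0, 37.4 and 57.8 in A-iSCs, 34.6, 41.6 and 30.8 in P56-NPCs and 17.7, 15.3 and 16.4 in P0-NPCs. A-iSCs and P56-NPCs lay above ASTs and P0-NPCs without overlap, while the members of each pair overlapped. Sox9 rose in A-iSCs by 1.27 (SE 0.18, adjusted p = 0.000983), a ratio of means of 2.54, and by 1.07 without A-iSC replicate 3. It was 0.98 higher in P56-NPCs than in ASTs (adjusted p = 0.000186). The difference of A-iSCs from P56-NPCs did not pass the test (0.29, interval -0.18 to 0.75) and was 0.088 without A-iSC replicate 3, while A-iSCs were called higher under library size scaling (0.83, adjusted p = 0.00614). P0-NPCs were at the level of ASTs within the interval of their difference (-0.079, interval -0.29 to 0.14), whose sign turned under library size scaling (0.20). Against P0-NPCs, A-iSCs were higher by 1.35 (adjusted p = 0.000328) and P56-NPCs by 1.06 (adjusted p = 6.38e-05). All 5 astrocyte markers were called higher in A-iSCs and in P56-NPCs than in ASTs, A-iSC replicate 3 had the highest sum in its group, and their part in the result was not tested. In P0-NPCs against ASTs, where Sox9 was not called, 3 were higher (Gfap, Slc1a2, Slc1a3) and 2 lower (Aqp4, Aldh1l1), and in A-iSCs against P56-NPCs 2 were higher and 2 lower (3 and 2 under library size scaling).

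Sox5 (ENSMUSG00000041540, chromosome 6, 143828425 to 144781977, minus strand), a SoxD factor, had 0.174, 0.12 and 0.161 FPKM in ASTs, 1.25, 1.08 and 2.27 in A-iSCs, 2.74, 3.06 and 2.66 in P56-NPCs and 2.10, 2.16 and 2.10 in P0-NPCs. ASTs were the lowest group without overlap, on 35 fragments or more per library, and of the A-iSC libraries only replicate 3 was above the P0-NPC libraries. Sox5 rose in A-iSCs by 1.11 (SE 0.18, adjusted p = 0.00179). That scale understates a low gene: with a pseudocount of 0.1 the difference was 2.64, and the ratio of means was 10.1. P56-NPCs and P0-NPCs exceeded ASTs as well, by 1.73 (adjusted p = 1.25e-06) and 1.44 (adjusted p = 1.97e-06), again through the group where the gene was high. Its lower level in A-iSCs than in P56-NPCs (-0.62, adjusted p = 0.0198) lost its call in 4 of 6 fits that left out a library, namely without P56-NPC replicate 1 or 2 or A-iSC replicate 1 or 2, without a filter (adjusted p = 0.0511) and under library size scaling (-0.24). Against P0-NPCs the difference was -0.33 (adjusted p = 0.137) and was called without A-iSC replicate 3 (-0.53, adjusted p = 0.00193). P56-NPCs exceeded P0-NPCs by 0.29 (adjusted p = 0.00806), which turned to -0.16 under library size scaling and was not called with all 4 groups in 1 fit (adjusted p = 0.0804).

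Sox6 (ENSMUSG00000051910, chromosome 7, 115470872 to 116038796, minus strand), the other SoxD factor, had 6.50, 5.63 and 6.54 FPKM in ASTs, 5.74, 5.80 and 9.97 in A-iSCs, 3.72, 4.56 and 3.65 in P56-NPCs and 3.78, 3.66 and 4.57 in P0-NPCs. Both NPC groups were below all AST libraries and overlapped each other. The differences from ASTs were -0.54 (SE 0.10, adjusted p = 0.00165) in P56-NPCs and -0.53 (SE 0.10, adjusted p = 0.00164) in P0-NPCs. In A-iSCs against ASTs it was not called (0.14, interval -0.33 to 0.61), and without A-iSC replicate 3 the sign turned (-0.091). A-iSCs exceeded P56-NPCs by 0.68 (adjusted p = 0.0229) and P0-NPCs by 0.67 (adjusted p = 0.0193), and without A-iSC replicate 3 these differences were 0.45 and 0.44, both still called. The first lost its call without P56-NPC replicate 1 or 3 and without a filter, and the second without P0-NPC replicate 1 or 2. P56-NPCs and P0-NPCs did not pass the test (-0.0080, interval -0.25 to 0.23), and P56-NPCs were called lower under library size scaling (-0.51). FPKM divides by the length of all annotated exons together, 14376 bases for Sox5 and 14832 for Sox6 over 25 exonic blocks each, against 2057 to 8311 for the other members, so levels of these 2 genes set beside the other members rest on that length.

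**Figure D2:**
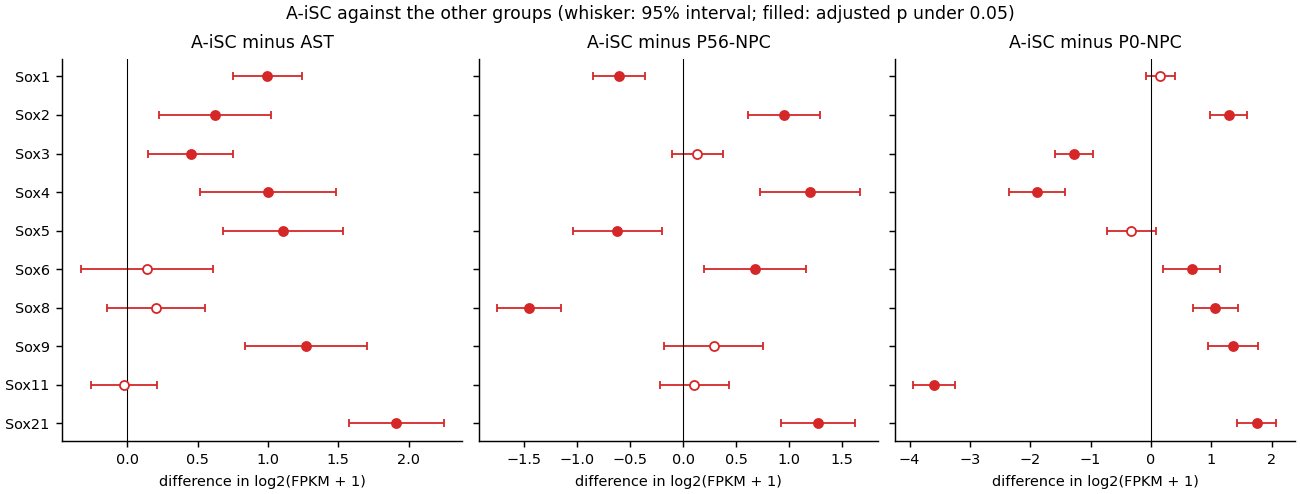
Difference in log2(FPKM + 1) of A-iSCs minus ASTs (left), P56-NPCs (middle) and P0-NPCs (right) for each Sox gene (points), with 95% intervals from limma (whiskers) and filled points for an adjusted p under 0.05. Against ASTs the 7 called genes lie right of 0, from 0.45 for Sox3 to 1.91 for Sox21, while Sox11 lies at -3.59 against P0-NPCs.

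The summed level of the 10 genes was 229.6 ± 16.3 FPKM (SD, n = 3) in ASTs, 402 ± 19.1 in A-iSCs, 278 ± 26.4 in P56-NPCs and 461 ± 48.3 in P0-NPCs. These sums hold the scaling of the deposited values, and under library size scaling ASTs, at 222 ± 10.1, and P56-NPCs, at 212 ± 16.8, differed by less than the SD of P56-NPCs, with A-iSCs at 453 ± 30.1 and P0-NPCs at 546 ± 50.4. Shares within a library are free of that scaling. Sox2 made up 58.7% ± 4.44 of the sum in ASTs, 51.9% ± 7.0 in A-iSCs, 38.6% ± 1.02 in P56-NPCs and 18.5% ± 1.99 in P0-NPCs. Thus Sox2 led the sum in ASTs, A-iSCs and P56-NPCs and Sox4 led it in P0-NPCs, at 48.0% ± 1.36. The SoxC pair took 66.9% ± 2.84 in P0-NPCs and between 11.1% ± 0.806 (P56-NPCs) and 16.4% ± 3.46 (A-iSCs) elsewhere. SoxE factors took 31.9% ± 1.56 in P56-NPCs, against 14.6% ± 1.09 in ASTs, 15.7% ± 1.95 in A-iSCs and only 5.45% ± 0.585 in P0-NPCs. Sox21 took 8.40% ± 1.19 in A-iSCs and 3.57% ± 0.266 in ASTs. ASTs and A-iSCs overlapped in the shares of Sox2, SoxC and SoxE, and did not overlap in that of Sox21.

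**Figure D3:**
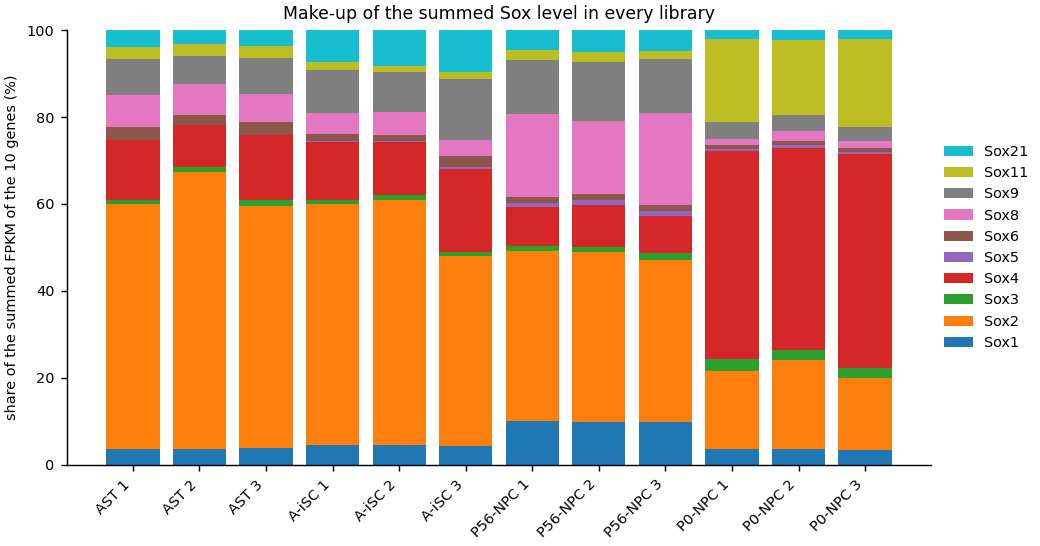
Share of each Sox gene in the summed FPKM of the 10 genes (y axis, percent) in each of the 12 libraries (stacked bars). Sox2 (orange) takes the largest part in ASTs, A-iSCs and P56-NPCs, Sox4 and Sox11 (red and olive) together take 66.9% on average in P0-NPCs, and Sox8 (pink) widens in P56-NPCs.

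Ratios of related members within a library showed where they moved apart. The log2 ratio of Sox5 to Sox6 was -5.37 ± 0.17 (SD, n = 3) in ASTs, -2.25 ± 0.15 in A-iSCs, -0.49 ± 0.073 in P56-NPCs and -0.91 ± 0.19 in P0-NPCs, with no overlap between any of the groups. For Sox21 to Sox2 it was -4.04 ± 0.21 in ASTs and -2.63 ± 0.39 in A-iSCs, again without overlap, and -3.01 ± 0.071 and -3.19 ± 0.071 in P56-NPCs and P0-NPCs. Sox11 relative to Sox4 was lower in A-iSCs, at -3.22 ± 0.43, than in ASTs (-2.17 ± 0.30), P56-NPCs (-2.12 ± 0.065) and P0-NPCs (-1.34 ± 0.076), and the A-iSC libraries lay below all others. The SoxE pair Sox8 and Sox9 was at -0.12 ± 0.23 in ASTs, -1.23 ± 0.56 in A-iSCs, 0.57 ± 0.25 in P56-NPCs and -0.97 ± 0.35 in P0-NPCs, where A-iSCs and P0-NPCs overlapped. Sox9 relative to Sox2 was -2.95 ± 0.31 in ASTs, -2.25 ± 0.54 in A-iSCs, of which replicate 3 was the highest, -1.59 ± 0.066 in P56-NPCs and -2.36 ± 0.10 in P0-NPCs. P56-NPCs had the highest mean and ASTs the lowest, A-iSC replicate 3 lay within the P56-NPC range, and the P0-NPC libraries lay within the A-iSC range. These ratios are descriptions and were not tested.

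**Figure D4:**
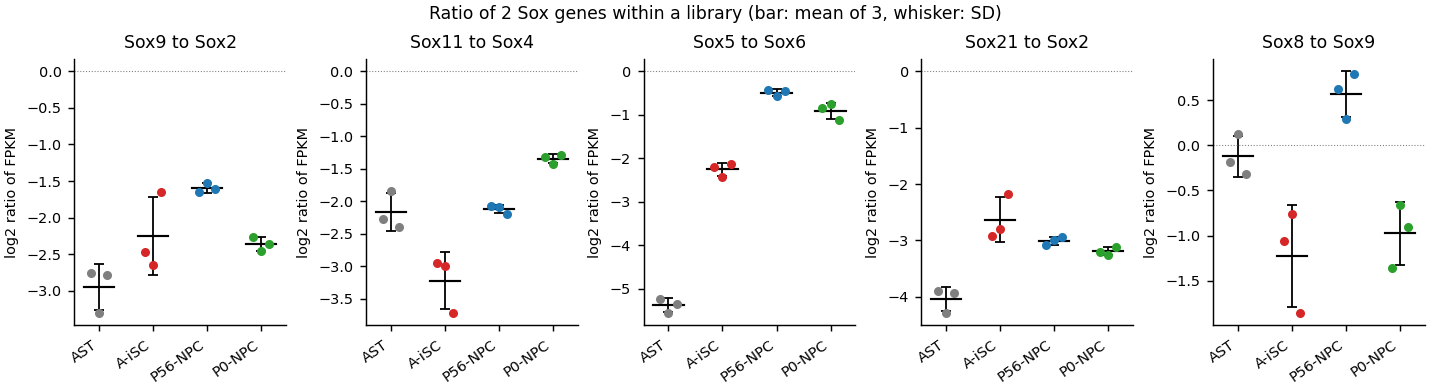
Log2 ratio of FPKM of 2 Sox genes within a library (y axis, 0 dotted, a scale of its own in each panel) for 5 pairs of genes, with the 3 libraries of each group as points, the mean as a bar and the SD as a whisker. Sox5 relative to Sox6 steps from -5.37 in ASTs to -0.49 in P56-NPCs with A-iSCs and P0-NPCs between, and Sox11 relative to Sox4 is lowest in A-iSCs.

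The remaining Sox genes, the partner factors and genes described as Sox targets were read from lists. Of 9 other Sox genes, 4 were tested in A-iSCs against ASTs, and 3 rose (Sox7, Sox10, Sox12) and none fell, with 4 called higher under library size scaling and 2 under upper-quartile scaling. Sox10, the third SoxE factor and a marker of the oligodendrocyte lineage, had 0.0782 to 0.388 FPKM in ASTs, 8.83 to 12.4 in A-iSCs, 66.0 to 78.8 in P56-NPCs and 2.38 to 3.93 in P0-NPCs, with no overlap of ASTs and A-iSCs and a difference of 3.25 (SE 0.17, adjusted p = 1.01e-05). It passed the filter only through A-iSCs. The oligodendrocyte precursor marker Pdgfra rose beside it, from 0.305 to 0.451 FPKM in ASTs to 4.49 to 7.14 in A-iSCs, and 3 of 5 such markers were called higher (Pdgfra, Olig2, Gpr17) and 1 lower (Cspg4). Under library size scaling 4 were higher and none lower, and under upper-quartile scaling 2 were higher and 1 lower. Pdgfra and Gpr17 also passed the filter only through A-iSCs. Sox12, the remaining SoxC factor, had 3.43 to 4.36 FPKM in ASTs, 5.10 to 6.37 in A-iSCs, 5.10 to 5.74 in P56-NPCs and 33.5 to 36.6 in P0-NPCs, so that P0-NPCs were above the rest, as with Sox4 and Sox11. Of 11 partner factors, 10 were tested in A-iSCs against ASTs, and 5 rose and none fell, beside 25.2% and 29.6% of all genes. Of the 5, Pou2f1 passed the filter only through A-iSCs, and under upper-quartile scaling 1 partner factor was called lower. The median difference of those tested was 0.55, against -0.059 over all genes tested. The largest were those of Chd7, a chromatin remodeller (1.64, SE 0.12, adjusted p = 3.64e-05), Nfia, a factor of glial fate (1.64, SE 0.13, adjusted p = 4.97e-05), and Pou3f2, a neural POU factor (1.46, SE 0.12, adjusted p = 6.30e-05). Nfia had 4.07 to 5.27 FPKM in ASTs and 15.1 to 17.5 in A-iSCs, and Pou3f2 had 2.91 to 3.37 and 9.56 to 11.9, without overlap. Pax6, which acts together with Sox2 in the eye and brain, was not called (0.16, adjusted p = 0.284).

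All 12 genes on the list of described targets were tested in A-iSCs against ASTs, and 3 rose, 4 fell and 5 were not called, shares near the 25.2% and 29.6% of all genes (4 and 4 under library size scaling, 3 and 5 under upper-quartile scaling). Those that rose were Mmd2, described as a target of Sox9 and Nfia in glia, Dcx, a microtubule protein of young neurons, and Apcdd1. Mmd2 had 1.24 to 1.77 FPKM in ASTs and 29.7 to 52.7 in A-iSCs, a difference of 4.0 (SE 0.21, adjusted p = 1.05e-05). Dcx, with the values given above, differed by 1.83 (SE 0.11, adjusted p = 1.39e-05). Dcx and Apcdd1 passed the filter only through A-iSCs. Those that fell were Nes, Egfr, Jag1 and Col2a1. Nes, the intermediate filament nestin of neural precursors and a described target of Sox2 with POU factors, had 183 to 209 FPKM in ASTs, 64.4 to 73.7 in A-iSCs, 3.48 to 3.91 in P56-NPCs and 26.1 to 27.9 in P0-NPCs. ASTs were thus the highest group and the difference of A-iSCs from ASTs was -1.47 (SE 0.13, adjusted p = 8.69e-05), while Sox2 rose. Col2a1, the collagen of cartilage that Sox9 activates there with Sox5 and Sox6, fell from 5.95 to 7.22 FPKM in ASTs to 0.609 to 0.934 in A-iSCs (-2.11, SE 0.13, adjusted p = 1.70e-05). It passed the filter only through ASTs, the group where it was high. Mesenchymal markers fell in the same comparison, 3 of 3 tested, from a summed 142 to 193 FPKM to 6.38 to 8.09. Col1a1 made up most of the sum in ASTs, with means of 158 FPKM in ASTs and 2.98 in A-iSCs. Pdgfrb had 11.1 and 2.79 and Col3a1 2.39 and 0.985, while Dcn and Lum were too low to be tested. The part of these markers was not tested. The median difference of the 12 targets was -0.13, beside -0.059 over all genes tested.

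The same lists were read in the neural preparations. Against ASTs, 9 of 11 partner factors were higher and 2 lower in P56-NPCs, and 9 higher and 2 lower in P0-NPCs. Under library size scaling the counts were 6 and 2 in P56-NPCs and 9 and 1 in P0-NPCs. Of all genes tested, 39.1% were higher and 39.8% lower in P56-NPCs, and 38.1% and 40.9% in P0-NPCs. Pou2f1 and Pou3f1, counted as higher in both, passed the filter only through the NPC group. Of the 12 described targets, 5 were higher and 6 lower in P56-NPCs, and 7 higher and 4 lower in P0-NPCs, of which the P56-NPC counts lie near the shares over all genes. Under library size scaling and under upper-quartile scaling 7 were lower in P56-NPCs. Dcx and Apcdd1 passed the filter there only through the NPC group, and Col2a1 in P56-NPCs against ASTs only through ASTs. A-iSCs had 5 partner factors higher and 2 lower than P56-NPCs (30.1% and 30.9% of all genes), and 3 higher and 6 lower than P0-NPCs (31.5% and 33.6%), and Pou3f1, lower in both, passed the filter only through the NPC groups. Under library size scaling these counts were 6 higher and 1 lower than P56-NPCs, and 3 higher and 7 lower than P0-NPCs. Mmd2 was highest in P56-NPCs, with a mean of 117 FPKM, against 50.2 in P0-NPCs.

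Several members share their locus with noncoding genes. Sox2ot, which carries Sox2 within an intron on the same strand and shares no exonic base with it, had mean levels of 1.85 FPKM in ASTs, 2.96 in A-iSCs, 10.3 in P56-NPCs and 2.77 in P0-NPCs. Its highest group was P56-NPCs, where Sox2 itself was lower than in A-iSCs. Sox1ot, on the same strand as Sox1 and with no shared exonic base, had means of 0.285 FPKM in ASTs, 3.33 in A-iSCs, 12.8 in P56-NPCs and 5.09 in P0-NPCs, so that P56-NPCs were the highest and ASTs the lowest group, as for Sox1. Sox21 shares 713 exonic bases with the antisense gene Gm4675, whose means were 0.347 FPKM in ASTs, 0.743 in A-iSCs, 0.703 in P56-NPCs and 0.379 in P0-NPCs. Sox5os1, antisense to Sox5 over 1330 exonic bases, was listed at 0 in all but P0-NPCs, where its mean was 0.00722 FPKM. Gm26735, antisense to Sox4 over 2616 exonic bases, was not analysed here, and reads of the 2 genes in those bases cannot be told apart without the strand.

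The genes whose levels followed each member most closely were taken from protein-coding genes with a mean of at least 5 FPKM in any group, by how little their log2(FPKM + 1) differed from the member's over the 12 libraries (root mean square, each gene centred on its own mean). The 12 libraries form 4 groups of close values, and the likeness is a description. Sox2 was followed most closely by Hexim1, Tfe3 and Ctns (differences of 0.11 to 0.12). For Sox1 the nearest genes were Ezh1, Drc1 and Ric3 (differences of 0.13 to 0.15), and for Sox3 they were Fam76b, Rtn1 and Luc7l (differences of 0.15 each). Sox21 had Abcc4, H2-T24 and Klhdc8b (differences of 0.17 to 0.24) nearest to it. Sox4 was less closely matched, by Mycn, Mdga1 and Vps37b (differences of 0.26 to 0.29), the first of which is the neural Myc family member. Near Sox11 were Nhlh2, Aplnr and Eomes (differences of 0.16 to 0.23), and Eomes is a factor of intermediate neuronal precursors. Nhlh2 was at 0 FPKM on average in ASTs and A-iSCs. Sox8 was matched by Fnbp1, Retsat and Nkx2-2 (differences of 0.17 to 0.21), of which Nkx2-2 is a factor of the oligodendrocyte lineage. Next to Sox9 came Slc43a2, Cerk and Gfra1 (differences of 0.16 to 0.20). The SoxD factor Sox5 was nearest to Ppp2r3a, Ulk2 and Sesn1 (differences of 0.11 to 0.16) and Sox6 to Cpne3, Fnip1 and Slc30a5 (differences of 0.14 to 0.15). Among the members themselves, the most alike pairs were Sox1 and Sox5 (0.29), Sox2 and Sox6 (0.36) and Sox9 and Sox21 (0.37), none of them from 1 subgroup, while Sox4 and Sox11 differed by 0.64 and Sox8 and Sox9 by 0.74.

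**Figure D5:**
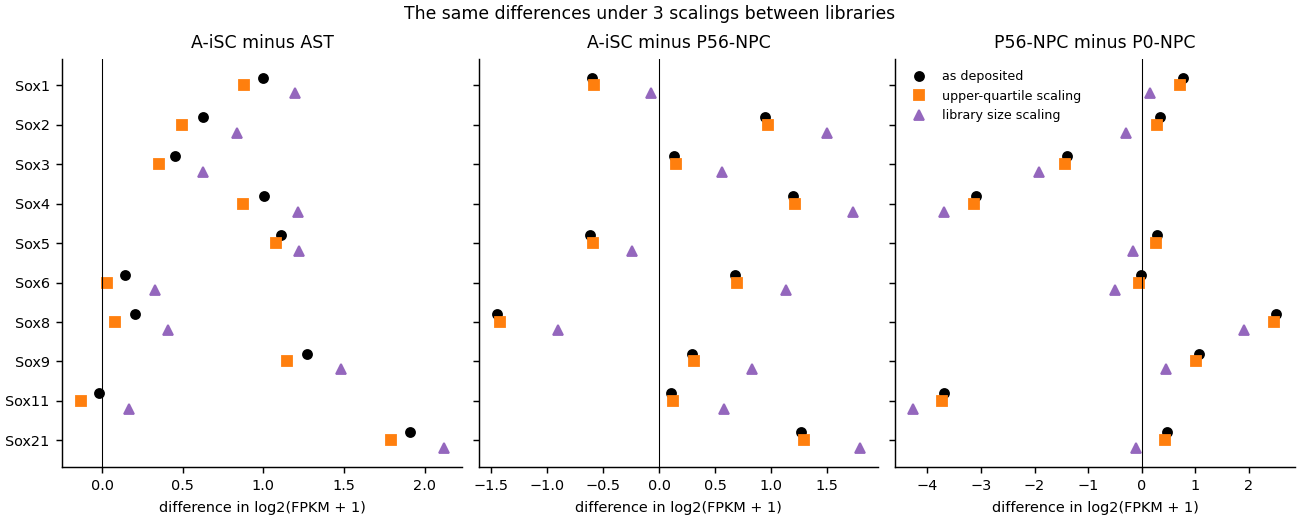
Difference in log2(FPKM + 1) of A-iSCs minus ASTs (left), A-iSCs minus P56-NPCs (middle) and P56-NPCs minus P0-NPCs (right) for each Sox gene, with the values as deposited (circles), after upper-quartile scaling (squares) and after scaling to the total of counted fragments (triangles). Library size scaling moves the points of P56-NPCs minus P0-NPCs to the left, taking Sox2 from 0.34 to -0.29, and leaves the 7 genes called in A-iSCs against ASTs above 0.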

How the data were processed

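Total RNA was sequenced by the authors from NEBNext Ultra libraries as paired-end reads of 125 or 150 bases. They deposited 1 table of expression values with a gene length in bases. Its unit is not named, and FPKM was inferred from the values. The deposited FPKM held whole fragments (100% of values within 0.02 of a whole number once multiplied by length and library size). They also held a scaling between libraries by a factor of 0.744 to 1.22, the fitted library size over the fragments counted. How that factor was derived was not tested. The submitters' processing notes name Bowtie 0.12.2 and mm8, without a role. The annotation is not given in the sources used here. The table and GENCODE M21 had 55154 identifiers in common, 54899 of them at identical positions, so positions are on GRCm38.

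The members and the gene and marker lists were chosen with earlier results of these data known. One marker of a list is not reported here, and sums leave it out. limma 3.58.1 in R 4.3.3 (lmFit, eBayes with a trend) was fitted to log2(FPKM + 1), 2 groups of 3 at a time in 6 comparisons, over all genes with a mean of at least 1 FPKM in at least 1 of the 2 groups. All 10 members passed that filter in each comparison. A total of 3 fragments, taken as the lowest level to be read, came to 0.103 to 0.187 FPKM at a length of 1 kilobase, a limit for counting error alone. The steps were tested on simulated data. Alternatives were library size and upper-quartile scaling, no filter, a pseudocount of 0.1, all 4 groups in 1 fit, a replicate block, limma-voom on the recovered fragments and each library left out. The count test named in the study's methods was not run, and limma-voom on the recovered fragments stood in its place as an alternative. Named genes are the members, the 3 of largest difference among those called in A-iSCs against ASTs on each list with others needed beside a member, genes overlapping a member, and the 3 most alike protein-coding genes. Sox12, Sox13, Pax6, Apcdd1, Pdgfra and Stmn2 were chosen with their values known, as were the vessel Sox genes. Sequences are from RefSeq promoter windows and GENCODE M21 transcripts.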

Additional observations from a re-analysis of the deposited data

How the results depend on the processing

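Of the 60 differences of a member in a comparison, all 60 kept their direction and their side of the threshold with a pseudocount of 0.1, 59 with a replicate block, 58 with limma-voom and 58 with all 4 groups in 1 fit, 57 without a filter, 57 under upper-quartile scaling and 43 under library size scaling. Of 360 such differences with a library left out, 335 did. limma-voom on the recovered fragments called 3484 higher and 4160 lower genes in A-iSCs against ASTs. No count of called members or genes, both directions together, moved by more than 1.5 times. Counts in 1 direction did. Called members under library size scaling were 7 higher and 1 lower in A-iSCs against P56-NPCs (4 and 3 as deposited), 5 and 4 in P56-NPCs against ASTs (6 and 1) and 2 and 5 in P56-NPCs against P0-NPCs (6 and 3). In P56-NPCs against ASTs, 2 members were lower with upper-quartile scaling, all 4 groups in 1 fit, the replicate block or limma-voom. Without a filter, 8597 genes were higher in P0-NPCs against ASTs.

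Scaling to the total of counted fragments changed the most calls. It undoes the deposited factors, which were 0.744 to 0.779 in P56-NPCs and 1.15 to 1.22 in P0-NPCs. This scaling moved the median difference of all genes from 0.0058 to -0.49 in P56-NPCs against P0-NPCs, from 0.029 to 0.47 in A-iSCs against P56-NPCs, from -0.030 to -0.29 in P56-NPCs against ASTs, from -0.068 to 0.17 in P0-NPCs against ASTs and from -0.059 to 0.12 in A-iSCs against ASTs. The split of calls went from 3550 higher and 4165 lower to 4432 higher and 2997 lower in A-iSCs against ASTs, from 5924 higher and 6032 lower to 4857 higher and 7578 lower in P56-NPCs against ASTs, from 5713 higher and 6146 lower to 6803 higher and 4877 lower in P0-NPCs against ASTs, from 4532 higher and 4643 lower to 8170 higher and 3008 lower in A-iSCs against P56-NPCs and from 6115 higher and 6011 lower to 3596 higher and 9132 lower in P56-NPCs against P0-NPCs. Differences of members turned their sign for Sox2 (-0.29), Sox5 (-0.16) and Sox21 (-0.10) in P56-NPCs against P0-NPCs, Sox9 in P0-NPCs against ASTs (0.20) and Sox11 in A-iSCs against ASTs (0.17). Upper-quartile scaling turned none and moved the split in A-iSCs against ASTs to 3047 higher and 4917 lower.

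Differences near 0 turned with a library left out. With each library left out in turn, Sox11 in A-iSCs against ASTs ranged from -0.050 to 0.017 and turned without AST replicate 2 or A-iSC replicate 3, and Sox6 there ranged from -0.091 to 0.26 and turned without A-iSC replicate 3. Sox11 ranged from -0.24 to 0.0020 in P56-NPCs against ASTs and from -0.023 to 0.22 in A-iSCs against P56-NPCs, both turning without P56-NPC replicate 3. Sox6 in P56-NPCs against P0-NPCs ranged from -0.090 to 0.071 and turned without P0-NPC replicate 3 and without P56-NPC replicate 1 or 3. Other differences that were not called moved by more than 1.5 times: Sox1 in A-iSCs against P0-NPCs (0.095 to 0.19), Sox2 in P56-NPCs against ASTs (-0.40 to -0.21), Sox3 in A-iSCs against P56-NPCs (0.079 to 0.18) and Sox9 in P0-NPCs against ASTs (-0.13 to -0.032). The cause was not tested.

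The sources do not say whether replicate numbers pair the samples. In their deviations from the group means, libraries of the same number correlated at -0.41, 0.35 and 0.45 in A-iSCs and ASTs. Libraries of unlike numbers there correlated at -0.57 to 0.54, so these values do not settle a pairing. In the other comparisons, libraries of the same number correlated between -0.14 and 0.10. With the replicate number as a block, 7 members were called in A-iSCs against ASTs and against P56-NPCs, 8 in A-iSCs against P0-NPCs and in either NPC group against ASTs, and 9 between the NPC groups, with 3694 higher and 4250 lower among all genes in A-iSCs against ASTs, and the block added the call of Sox2 in P56-NPCs against ASTs (-0.33, adjusted p = 0.0320) and changed no other.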

Other observations

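The Sox genes of blood vessels were not among the 10 members. Sox17, a factor of arterial endothelium, was listed at 0 in all AST and A-iSC libraries and at 0.0392 to 0.127 FPKM in P56-NPCs and 0.763 to 1.51 in P0-NPCs. Sox18, of developing vessels, had 0.332 to 0.852 FPKM in ASTs, 0.0519 to 0.276 in A-iSCs, 0.0356 to 0.112 in P56-NPCs and 1.59 to 2.53 in P0-NPCs. Both were called higher in P0-NPCs than in ASTs, Sox17 with an adjusted p of 0.000153 and Sox18 by 0.87 (SE 0.17, adjusted p = 0.00154) with limma, and both passed the filter on low values only through P0-NPCs. The 5 endothelial markers (Pecam1, Cldn5, Flt1, Kdr, Cdh5) were also called higher in P0-NPCs than in ASTs, Pecam1, Cldn5 and Flt1 through P0-NPCs alone. Their sums were 72.6 to 75.8 FPKM in P0-NPCs, 4.57 to 6.47 in ASTs, 1.57 to 2.45 in A-iSCs and 3.04 to 3.86 in P56-NPCs. Among the other groups the genes parted. Cldn5 was at 0 in all AST libraries and had a mean of 1.99 FPKM in P56-NPCs, where Sox18 had means of 0.604 and 0.0621. Sox7, of the same SoxF group, followed another order, with 0.615 to 0.881 FPKM in ASTs, 1.3 to 1.91 in A-iSCs, 0.110 to 0.491 in P56-NPCs and 1.33 to 1.71 in P0-NPCs. It rose in A-iSCs against ASTs by 0.57 (SE 0.14, adjusted p = 0.00998), having passed the filter only through A-iSCs. In that comparison 2 of the 3 endothelial markers tested fell and none rose.

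Sox13, a SoxD gene, had 1.32 to 1.76 FPKM in ASTs, 2.05 to 2.21 in A-iSCs, 5.22 to 5.74 in P56-NPCs and 2.66 to 3.71 in P0-NPCs, the same order of group means as Sox5. A-iSCs and ASTs did not pass the test for Sox13 (0.29, SE 0.11, adjusted p = 0.0607). Sox14 was listed at 0 in all 12 libraries.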
